A study of Sus scrofa with 88 samples.

Results

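PLIN1, RETN and ADIG, genes known from adipocytes, were each measured by 1 spot of a pig oligonucleotide array, out of 20736 spots in all and 178 with a gene symbol. They were chosen by symbol in the annotation table of the platform (Entrez genes 654411, 396674 and 641357), with earlier results of these data known. The loin muscle (longissimus dorsi) RNA came from 176 F2 pigs of a Duroc x Pietrain cross, taken at slaughter from 44 litters. Each of the 88 two-color arrays paired littermates of the same sex, a high and a low pig for 1 trait. The trait was loin muscle area (LMA) for 24 male and 24 female pairs and backfat depth (BF) for 20 male and 20 female pairs. All groups share the cross, the muscle and sampling at slaughter. Neither trait is a measure of fat within the loin: backfat lies under the skin.

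Fat within skeletal muscle is stored in adipocytes that lie between fibers and between fiber bundles, and in meat it is seen as marbling. Perilipin 1 (PLIN1) coats the lipid droplets of these cells and controls the access of lipases to the stored triglyceride. Resistin (RETN) is a small secreted protein that is made mainly by adipocytes in mice and mainly by macrophages and monocytes in humans. Adipogenin (ADIG) is a small membrane protein that is induced when mouse preadipocytes become adipocytes. In a piece of tissue, fewer adipocytes and less RNA per adipocyte cannot be told apart.

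The deposited values are log2 ratios of the pigs on an array, so the level of a gene in a single pig was not analysed here, and whether the spots of muscle or fat markers had a signal could not be checked. The ratio was read as running in a fixed order of high and low pig on all arrays. Which of them is the numerator is not given in the sources used here, so a positive value below means more RNA in the numerator pig, and a reversed order would turn every high against low sign below. All 88 arrays had values for the 3 spots. The group values given first below keep the effect of the dye. By the labels the high pig was in Cy5 on 12 and in Cy3 on 12 arrays for either sex of LMA litters. In BF litters it was in Cy5 on 8 and in Cy3 on 12 arrays of male pairs, and on 9 and 11 of female pairs. The SD of the ratios over all spots of an array had a median of 0.222 and ran from 0.133 to 0.660. It was above 0.4 on 4 arrays, the male pair of litter 56 and the female pairs of litters 12, 32 and 54, all from LMA litters, and results that rest on them are given without them as well.

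PLIN1 differed little between most littermates, and its ratios lay on both sides of 0 in all 4 groups. In LMA litters the lowest, median and highest log2 ratios were -0.21, 0.054 and 0.30 in male pairs, with a mean of 0.046 ± 0.12 (SD, n = 24) and 16 arrays above 0. In female pairs of LMA litters they were -0.30, -0.0036 and 0.83, with a mean of 0.052 ± 0.22 (SD, n = 24) and 11 arrays above 0. The mean and the median of the female pairs thus stood apart. In BF litters the ratios were -0.21, -0.049 and 0.14 in male pairs (mean -0.051 ± 0.089, SD, n = 20, 8 arrays above 0) and -0.13, 0.036 and 0.14 in female pairs (mean 0.020 ± 0.077, SD, n = 20, 12 arrays above 0). The groups overlapped almost entirely. The highest value, 0.83 or 1.78-fold, came from the female pair of litter 32, whose array had an SD of 0.551; on that array 89.5% of all spots had a smaller ratio in size. The next were 0.35 in the female pair of litter 42 and -0.30 in the female pair of litter 19. Without the 4 arrays of wide ratios, the mean of female pairs in LMA litters was 0.0086 ± 0.15 (SD, n = 21).

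RETN varied less than PLIN1. Its lowest, median and highest log2 ratios in LMA litters were -0.13, 0.025 and 0.18 in male pairs (mean 0.028 ± 0.073, SD, n = 24, 17 arrays above 0) and -0.20, -0.021 and 0.26 in female pairs (mean -0.031 ± 0.10, SD, n = 24, 9 arrays above 0). In BF litters they were -0.11, 0.033 and 0.25 in male pairs (mean 0.024 ± 0.093, SD, n = 20, 12 arrays above 0) and -0.20, -0.028 and 0.14 in female pairs (mean -0.023 ± 0.10, SD, n = 20, 8 arrays above 0). The mean was above 0 in male and below 0 in female pairs of both traits, but the ranges overlapped widely. The largest ratio was 1.20-fold, from the female pair of litter 12, an array with an SD of 0.559 on which 53.9% of spots had a smaller ratio in size.

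ADIG had the widest ratios of the 3 genes. In LMA litters its lowest, median and highest log2 ratios were -0.43, -0.064 and 0.91 in male pairs (mean 0.046 ± 0.31, SD, n = 24, 10 arrays above 0) and -0.68, 0.12 and 0.55 in female pairs (mean 0.025 ± 0.34, SD, n = 24, 15 arrays above 0). In BF litters they were -0.50, 0.0051 and 0.52 in male pairs (mean 0.010 ± 0.23, SD, n = 20) and -0.60, 0.0043 and 0.36 in female pairs (mean -0.0056 ± 0.24, SD, n = 20), with 10 arrays above 0 in either sex. Large positive and large negative ratios thus occurred in every group. In a model that also held dye, the ADIG coefficient for BF was -0.021 in male and -0.021 in female pairs (standard errors 0.054 and 0.054). The sign in male pairs of BF litters thus turned with the dye. The highest, 0.91 or 1.88-fold, came from the male pair of litter 71, on an array with an SD of 0.306 where 98.1% of spots had a smaller ratio in size. The lowest came from the female pair of litter 54, at -0.68 on an array of wide ratios. In litter 139 both pairs were low, at -0.50 in the male and -0.60 in the female pair.

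**Figure D1:**
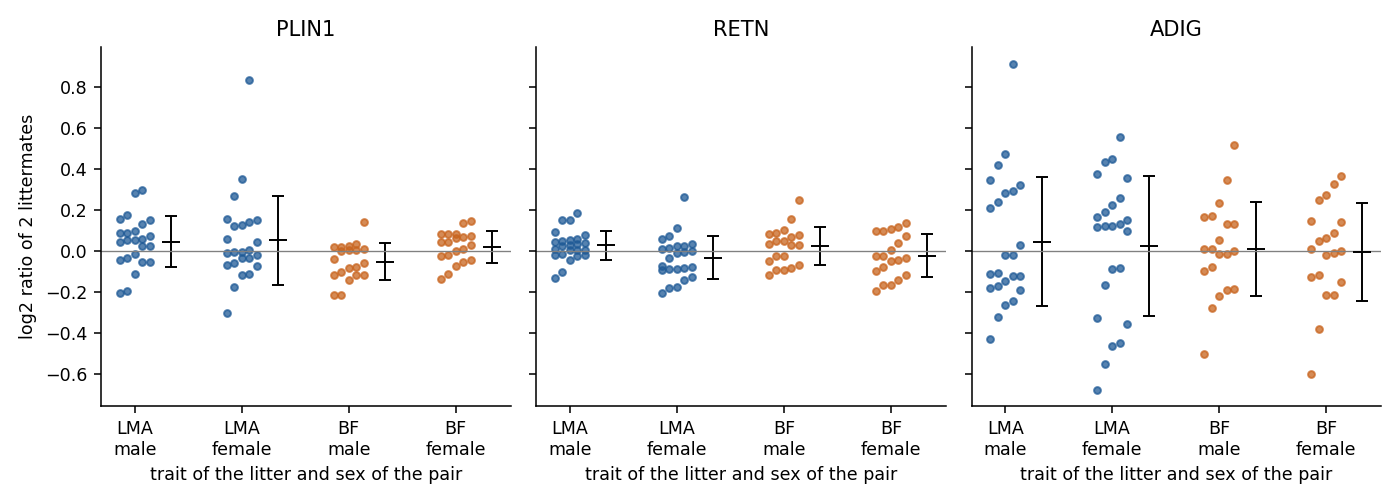
Log2 ratio of the 2 littermates on each array (vertical axis) for PLIN1, RETN and ADIG, by trait of the litter and sex of the pair (horizontal axis). Each point is 1 array (24, 24, 20 and 20 from left to right), and the bar beside the points is the mean with its SD. All groups span 0, ADIG spreads from -0.68 to 0.91, and 1 female pair of LMA litters stands alone for PLIN1 at 0.83.

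Whether the genes differed between high and low littermates was tested with limma over all spots, in a model of dye and both traits whose p-values were adjusted by Benjamini-Hochberg. None of the 3 genes passed an adjusted p of 0.05 for LMA or for BF, and neither did any other spot (0% of 20736 for each trait, with 871 spots for LMA and 772 for BF at an unadjusted p under 0.05). The PLIN1 coefficient for LMA was 0.049 (standard error 0.019, 95% interval 0.011 to 0.087, adjusted p = 0.9996), positive on 27 of 48 arrays. The interval of a single spot is not adjusted for the number of spots. Without the female pair of litter 32 the coefficient was 0.033, and without the 4 arrays of wide ratios it was 0.027 (standard error 0.016, adjusted p = 0.965). For BF, PLIN1 had a coefficient of -0.0076 (95% interval -0.050 to 0.035), with 20 of 40 arrays above 0. The difference of LMA minus BF was 0.057 (standard error 0.029, adjusted p = 0.9997), so the traits were not shown to differ.

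RETN had coefficients of -0.0017 for LMA (standard error 0.012, 95% interval -0.026 to 0.022) and -0.0074 for BF (standard error 0.013, 95% interval -0.034 to 0.019). These intervals were narrower than those of the other genes. They bound the average ratio of the RETN spot, not the difference in RETN RNA, since the signal of the spot was not checked. ADIG had coefficients of 0.035 for LMA (standard error 0.034, 95% interval -0.033 to 0.10) and -0.021 for BF (standard error 0.038, 95% interval -0.096 to 0.054), and differences in ADIG within those limits were not excluded. The difference of male minus female pairs in these effects also did not pass for any of the 3 genes (0% of spots for either trait). For RETN it was 0.059 in LMA litters (standard error 0.023, limma adjusted p = 0.682) and 0.042 in BF litters (standard error 0.025, limma adjusted p = 0.999). For PLIN1 it was -0.0067 in LMA and -0.066 in BF litters, with standard errors of 0.039 and 0.042.

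**Figure D2:**
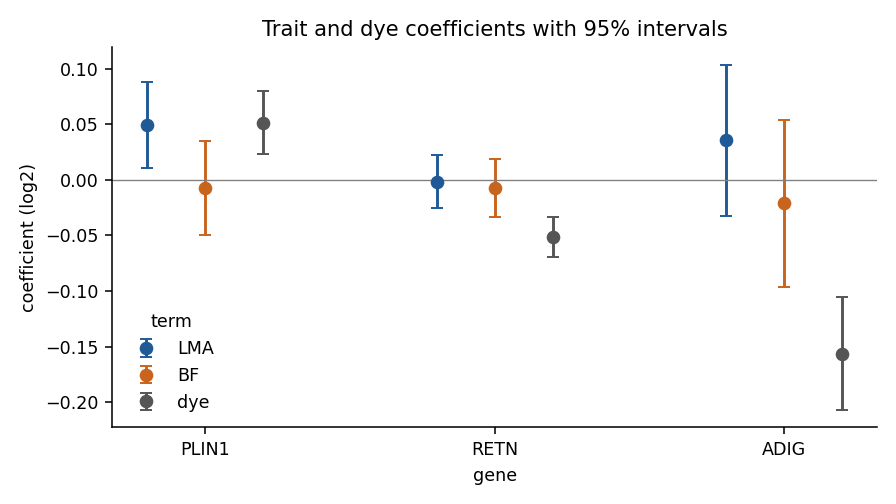
Coefficients of the limma fit (vertical axis, log2) for PLIN1, RETN and ADIG: high against low pigs in LMA and BF litters, and dye. Points are estimates over 88 arrays and bars are 95% intervals not adjusted for the number of spots. The trait coefficients lie between -0.021 and 0.049, and the dye coefficients of RETN and ADIG lie below 0.

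Few other genes of fat could be followed. Of 20 adipocyte markers in a list, PLIN1, RETN and ADIG were the 3 with a named spot, and their median coefficient was 0.035 for LMA and -0.0076 for BF, against -4.4e-04 and -2.2e-04 over all spots. None of 12 genes of fatty acid and triglyceride synthesis had a named spot. Of 16 genes of lipid transport and oxidation 1 had, ACADS, an enzyme of short-chain fatty acid oxidation in mitochondria. Its coefficients were 0.014 for LMA and -0.044 for BF. Of 17 hormones and receptors of energy balance 5 had a spot, and 0 passed for either trait. Among these, neuropeptide W (NPW) had an LMA coefficient of -0.025, the hypothalamic peptide precursor HCRT one of 0.038 and the melanocortin precursor POMC one of -0.033, and the stomach hormone ghrelin (GHRL) a BF coefficient of 0.016. Markers of other cells were as sparse: 2 of 11 for myofibers (MYH7 at 0.11 and MYOD1 at -0.0083 for LMA), 2 of 8 for macrophages and lymphocytes (CD4 at -0.011 and TYROBP at -0.018 for LMA) and 1 of 4 for blood (HBE1 at 0.0037 for LMA). None of them passed for either trait, and no named spot was found for fibroblasts, endothelium or nerve.

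All 3 genes passed the test for dye, 1 on the positive and 2 on the negative side, as did 61.1% of spots (30.7% positive and 30.4% negative). Here the ratios were arranged by dye on each array, and the dye favored by a positive value follows from the unknown order of the ratio. PLIN1 stood on the positive side, with a dye coefficient of 0.051 (standard error 0.014, limma adjusted p = 0.00128) and 60 of 88 arrays above 0. RETN stood on the negative side at -0.051 (standard error 0.0089, limma adjusted p = 5.83e-07), with 23 of 88 arrays above 0. ADIG stood farther out at -0.16 (standard error 0.025, limma adjusted p = 1.06e-07), with 22 arrays above 0, and 92.5% of spots had a smaller dye coefficient in size. For each of the 3 genes the estimated dye coefficient was larger in size than either trait coefficient, by little for PLIN1 in LMA litters (0.051 against 0.049). The intensity of the spots was not analysed here.

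The genes differed in how far littermates lay apart. The residual SD of the ratio, after dye and trait, was 0.13 for PLIN1, 0.083 for RETN and 0.24 for ADIG, against 0.14 for the median spot. This placed PLIN1 above 49.0%, RETN above 23.7% and ADIG above 75.2% of spots. ADIG went beyond 0.32 on the log2 scale, in either direction, on 23 of 88 arrays, PLIN1 on 2 and RETN on 0, and the median spot did so on 4. Beyond 1.5-fold lay 3 arrays for ADIG, 1 for PLIN1 and 0 for RETN. These counts are of ratios that keep the dye effect. A difference between pigs and an error of measurement cannot be told apart in these spreads, since each pair was measured on 1 array.

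The spread of PLIN1 was set side by side for the traits. Its residual SD was 0.17 in LMA and 0.079 in BF litters, a ratio of 2.10, whereas the median spot had a ratio of 1.15, and 97.9% of spots had a lower one. Without the 4 arrays of wide ratios, all of LMA litters, the ratio for PLIN1 was 1.66 and that of the median spot 1.01, and 97.7% of spots had a lower one. A test of this ratio was chosen after the values were seen. With the trait moved over whole litters it gave an adjusted p of 0.0849 for PLIN1 (permutation test, two-sided, 3 genes), and 0.0717 without the 4 arrays, so the difference in spread did not pass. For ADIG the ratio was 1.36 (adjusted p = 0.1996 in the same permutation test) and for RETN 1.00 (adjusted p = 0.985).

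Whether the 3 adipocyte genes went up and down together from array to array was examined on the residuals of the fit in dye order. None of the pairs of genes passed an adjusted p of 0.05 over all 88 arrays, while some passed in other settings given below. Over 88 arrays, residuals of PLIN1 and RETN had a Pearson correlation of -0.117 (95% interval -0.318 to 0.0950, permutation p = 0.276, adjusted p = 0.276 over the 3 pairs), and a Spearman's rho of -0.0924 (permutation p = 0.391). PLIN1 and ADIG had a correlation of 0.158 (95% interval -0.0533 to 0.356, permutation p = 0.140, adjusted p = 0.210) and a rho of 0.134 (permutation p = 0.215). RETN and ADIG had the highest, 0.219 (95% interval 0.0102 to 0.410, permutation p = 0.0414, adjusted p = 0.124) with a rho of 0.237 (permutation p = 0.0262, adjusted p = 0.0786). The arrays of a litter were not independent, so these p-values may be too small and the intervals too narrow.

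Leaving out the 2 arrays farthest from the median of the first gene gave correlations of -0.0661 for PLIN1 and RETN, 0.136 for PLIN1 and ADIG and 0.246 for RETN and ADIG. In LMA litters the correlations in that order of pairs were -0.136, 0.175 and 0.283, and in BF litters -0.110, 0.149 and 0.156. They were -0.0224, 0.117 and 0.179 in male pairs and -0.164, 0.196 and 0.252 in female pairs. None of these 12 values passed after adjustment over the 3 pairs of its subset (Pearson). By Spearman's rho, RETN and ADIG passed in LMA litters (0.382, adjusted p = 0.0234, permutation test). The 3 residuals had the same sign on 29 of 88 arrays, 14 positive and 15 negative.

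**Figure D3:**
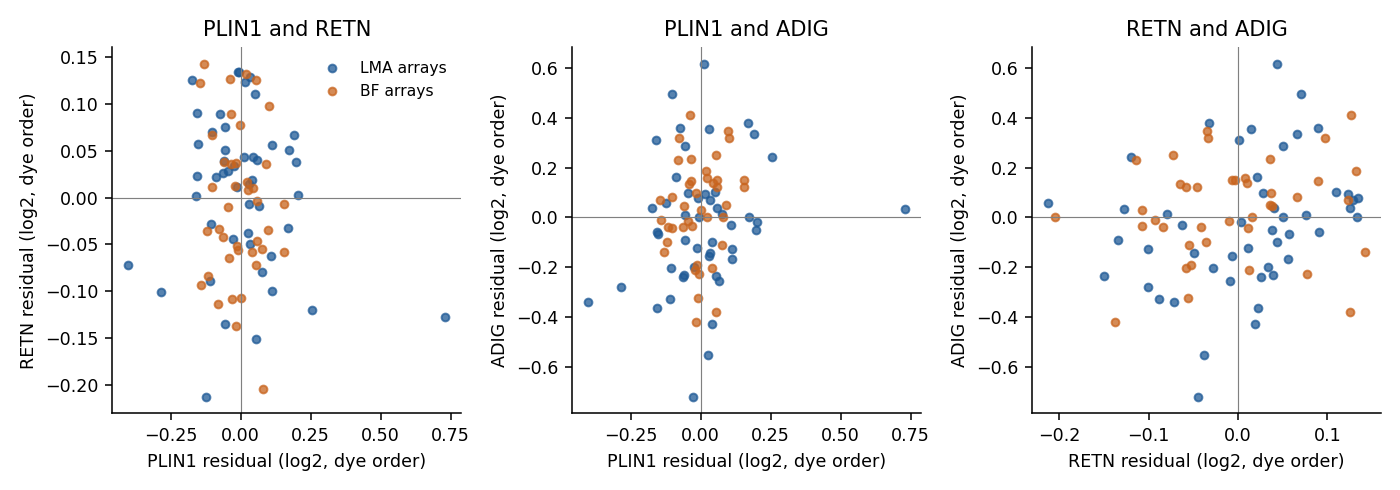
Residuals of the limma fit in the order of the dyes (both axes, log2) for the 3 pairs of genes; each point is 1 of 88 arrays, colored by the trait of the litter. The points form loose clouds, with correlations of -0.117, 0.158 and 0.219 from left to right.

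Against the rest of the array these values were ordinary. The correlations of PLIN1 with all other 20735 spots had their central 95% between -0.287 and 0.323, so that RETN was above 24.3% and ADIG above 83.2% of them. The central 95% for RETN ran from -0.324 to 0.417, with ADIG above 83.7% of spots. For ADIG it ran from -0.394 to 0.489, with RETN above 79.1% and PLIN1 above 72.2% of spots. A correlation near 0.2 was thus common between these genes and other spots.

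**Figure D4:**
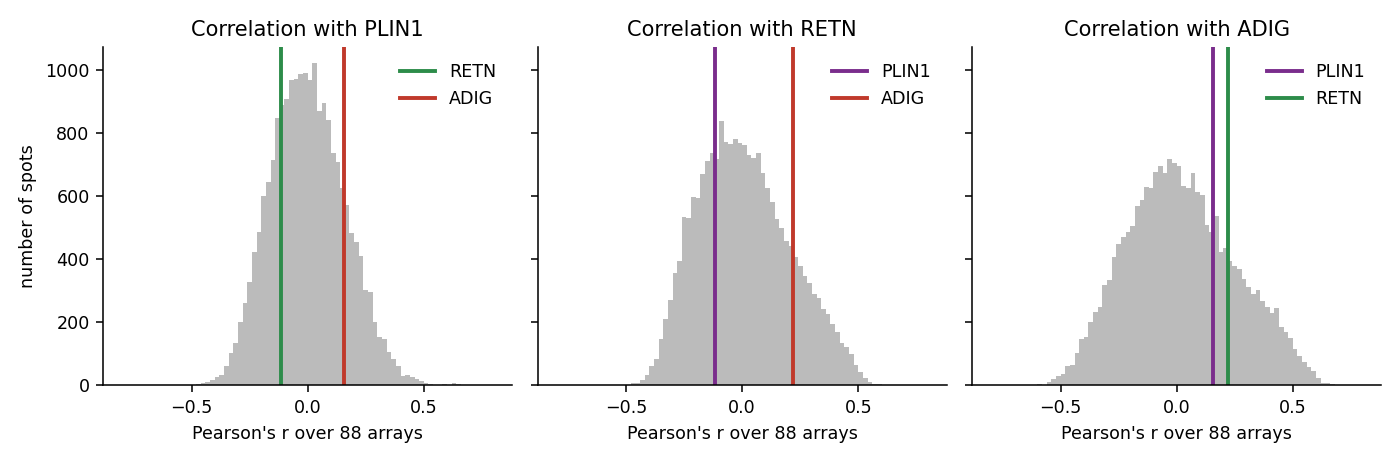
Number of spots (vertical axis) by their Pearson correlation over 88 arrays (horizontal axis) with PLIN1, RETN and ADIG in turn, from residuals of the limma fit. The lines mark the other members, all inside the central 95% of spots.

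The strength of the dye effect differed between arrays, and RETN and ADIG moved with it. For each array the slope of its ratios in dye order on the dye coefficients of all spots was taken, where 1 is the average effect; it ran from 0.443 to 1.64 and was above 0 on all arrays. The residuals of RETN had a correlation of -0.485 with this slope and those of ADIG one of -0.497, while PLIN1 had one of 0.147; 87.9%, 88.9% and 33.2% of spots had a smaller correlation in size. With the slope regressed out of both genes, the correlation of RETN and ADIG was -0.0292 (adjusted p = 0.786, permutation test) in place of 0.219. That of PLIN1 and ADIG was 0.269 (permutation p = 0.0118, adjusted p = 0.0353) in place of 0.158, with a rho of 0.213 (adjusted p = 0.137, permutation test). It was then above 96.2% of the correlations of PLIN1 with all spots and above 88.6% of those of ADIG. With litter means in place of arrays, PLIN1 and ADIG did not pass, at 0.154 over 44 litters with the slope regressed out (adjusted p = 0.442, permutation test) and -0.0085 without that step (adjusted p = 0.955, permutation test).

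The male and the female pair of a litter are separate pigs with the same parents. Over 44 litters, residuals in the order of high and low pig had a correlation between male and female pairs of -0.127 for PLIN1, 0.0206 for RETN and -0.221 for ADIG (permutation p = 0.399, 0.894 and 0.1501, adjusted over 3 genes 0.599, 0.894 and 0.450). Spearman's rho was -0.111, 0.0393 and -0.181 (permutation p = 0.469, 0.802 and 0.239). A high pig with more of one of these RNAs was thus not shown to go with the like in the other sex of the litter. For PLIN1 the correlation was 0.191 without the litters that held an array of wide ratios and -0.262 without the 2 litters farthest out, so its sign rested on a few litters. For ADIG it was -0.477 in LMA litters (adjusted p = 0.0518, permutation test), where the high male and the high female carried opposite dyes in all 24 litters, so that an order by pig and an order by dye cannot be told apart there. It was 0.342 in BF litters (adjusted p = 0.418, permutation test), of which 11 had opposite dyes and 9 the same, and -0.0465 over both traits without the 2 litters farthest out. By the study's methods, the high male shared its dye with the low female of its litter. The labels used here depart from that in those 9 litters. The residuals of the male and female pairs had the same sign in 22 of 44 litters for PLIN1, in 21 for RETN and in 20 for ADIG.

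Read in the order of the dyes, the pairs of a litter had ADIG residuals that went together. Their correlation was 0.568 over 44 litters (Spearman's rho 0.561, permutation p = 3e-05 and 7e-05, adjusted over 3 genes 9e-05 and 0.00021), and 0.519 without the 2 litters farthest out. Within traits it was 0.476 for LMA litters and 0.769 for BF litters, and the LMA value is the -0.477 above with its sign turned, not a separate measurement. It was 0.494 in 35 litters with the high male and the high female in opposite dyes and 0.867 in the 9 litters with both in 1 dye. In those 9 litters the residuals of the 2 pairs share a sign or differ alike in either order, so the orders cannot be told apart there. Of all spots 99.0% had a lower value than the 0.568 over 44 litters, and the median spot had 0.136. For RETN the correlation was 0.287 (rho 0.282, permutation p = 0.0599 and 0.0629, adjusted p = 0.0898) and for PLIN1 0.186 (rho 0.2003, permutation p = 0.223 and 0.191), and neither passed. Without the litters holding an array of wide ratios these were 0.421 for RETN and -0.133 for PLIN1, so the sign for PLIN1 rested on those litters, and 0.573 for ADIG. The dye slope of the arrays went together within litters too, with a correlation of 0.487 over 44 litters (rho 0.570, permutation p = 7.8e-04 and 7e-05). With this slope regressed out, the ADIG correlation was 0.280 (adjusted p = 0.194, permutation test) and 81.9% of spots had a lower value.

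**Figure D5:**
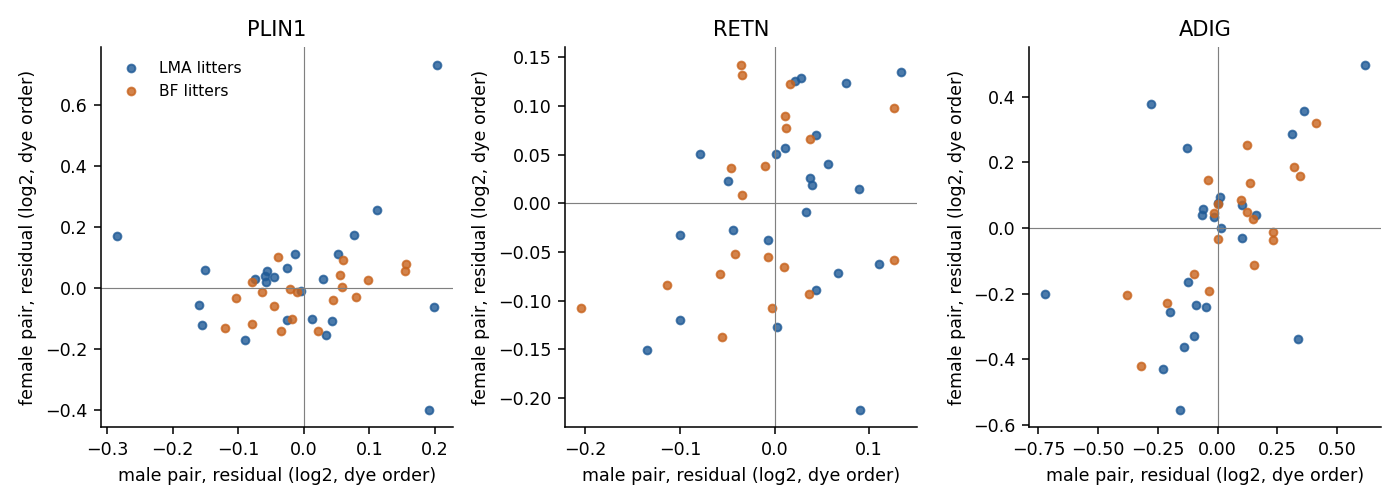
Residuals in the order of the dyes (log2) of the male pair (horizontal axis) and the female pair (vertical axis) of each of 44 litters for PLIN1, RETN and ADIG, colored by the trait of the litter. The ADIG points follow a rising band (correlation 0.568), and those of PLIN1 and RETN scatter more (0.186 and 0.287).

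The named genes whose residuals were most like each member over the 88 arrays were different for the 3 genes. For PLIN1 they were CAV1, the coat protein of caveolae (correlation 0.393), RPN2, a subunit of oligosaccharyltransferase (0.374), and TSPO, a protein of the outer mitochondrial membrane (0.359). Without the 4 arrays of wide ratios these were 0.194, 0.309 and 0.392, so that CAV1 rested on those arrays while TSPO did not. Over all 88 arrays Spearman's rho was 0.201 for CAV1, 0.157 for RPN2 and 0.445 for TSPO. The lowest was a spot of ASIP, an antagonist of melanocortin receptors, at -0.363 (-0.158 without the 4 arrays). For RETN they were PPYR1, a pancreatic polypeptide receptor (0.565), another spot of ASIP (0.538) and CRSP3, a calcitonin receptor-stimulating peptide (0.536), with the monoamine oxidase MAOA lowest at -0.326. For ADIG they were SHAS2 (0.610), the peptide transporter SLC15A1 (0.6001) and the desmosomal cadherin DSG1 (0.593), with SPRP lowest at -0.374. With the array dye slope regressed out, the 3 highest of RETN were 0.383, 0.329 and 0.317 and those of ADIG 0.443, 0.387 and 0.408, all below their first values. Those of PLIN1 were 0.369, 0.3502 and 0.363. Spots without a symbol, 20558 of 20736, could not be named, and they held the highest correlation for each gene, 0.651 for PLIN1, 0.583 for RETN and 0.718 for ADIG.

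The other list genes with a spot had correlations with PLIN1 from -0.195 for HCRT to 0.148 for CD4 over 11 genes. With RETN they ran from -0.322 for MYOD1 to 0.390 for HCRT, and with ADIG from -0.257 for TYROBP to 0.563 for HCRT. HCRT itself had a dye coefficient of -0.094, on the same side as RETN and ADIG. Over all spots with a dye coefficient below 0, the median correlation was 0.1002 with RETN and 0.130 with ADIG, against -0.0757 with RETN and -0.0680 with ADIG over those above 0. For PLIN1 the medians were -0.0546 over spots below 0 and 0.0331 over those above 0. Over named spots alone, the median with RETN was 0.247 for 111 spots below 0 and 0.0052 for 64 spots above 0. With ADIG these medians were 0.298 and -0.0546, and with PLIN1 -0.0981 and 0.0537. The part of the dye effect in these correlations was not tested beyond the removal of the array slope.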

How the data were processed

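RNA of loin muscle from littermates was hybridized in pairs to two-color arrays. Per the study's methods, the authors started from median spot intensities and subtracted no background. They normalized by lowess within print tips and then by scale over the whole array, and gave the data in log2. The deposited values, log2 ratios with 1 per spot and array, were used without further normalization. Trait, sex, litter and the dye of the high pig came from the labels. Averaged per spot, ratios of LMA and of BF arrays were correlated at 0.938 once arranged by dye, against -0.0748 in the form deposited. Values had up to 10 digits on 47 arrays and 6 on 41, which matched the high pig's dye for all 88. The deposited ratio was therefore read as running in 1 order of high and low pig, and for fitting its sign was turned where Cy3 marked the high pig.

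Linear models (R 4.3.3, limma 3.58.1, lmFit and eBayes) used the intercept for dye and a signed column for each trait. Adjustment by Benjamini-Hochberg covered all 20736 spots, and sex was compared by contrasts. Correlations used residuals and 100000 two-sided permutations (Python 3.11.15, scipy 1.17.1). Fits were tested on residuals of the real arrays with known LMA changes put in, and permutations on simulated data. The changes put in were larger than the trait coefficients of the 3 genes, so recovery of effects that small was not tested. The 3 genes and the gene lists were chosen with earlier results of these data known. Genes named beside the 3 are list members, up to 4 a list by the smallest p for a trait, and the 3 named spots most like and the 1 least like each member. All 178 accessions of named spots were found in RefSeq (Sscrofa11.1), and 20558 spots had no symbol. Litter numbers pair the arrays of a litter by the labels; residuals of such arrays had a median correlation of 0.118 over all spots (-0.378 to 0.544, above 0.1 in 24 of 44 litters). Where nothing else is said, p-values take the arrays as independent. The number of arrays limits the precision. Alternatives were litter as a replicate block, other scalings, weights, filters, subsets and orders of the ratio.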

Additional observations from a re-analysis of the deposited data

How the results depend on the processing

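With litter as a replicate block (consensus correlation 0.126), 12225 spots passed for dye and 0 for either trait, and no member changed its call; PLIN1 for LMA was 0.049 with an adjusted p of 0.737. Spots passing for dye were 7538 of 13824 tested when the third of spots of lowest spread was left out, against 12673 of 20736 in the main fit. Over the alternatives that kept the order of high and low, 0 of 3 genes passed for LMA or BF. Coefficients near 0 changed sign. For BF, PLIN1 was 0.026 in female pairs alone, RETN 0.0012 with array weights, 2.7e-04 without the dye term and 0.014 in male pairs alone, and ADIG 0.0024 without the dye term. RETN for LMA was 0.028 in male pairs alone. For LMA minus BF, RETN was -0.0022 with array weights. For male minus female in LMA litters without the 4 arrays of wide ratios, PLIN1 was 0.031 and ADIG -0.0059, and ADIG in BF litters was -4.1e-04 with the replicate block. The ratio of RETN spread in LMA and BF litters was 0.907 without the 4 arrays.

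Leaving out each array in turn, a setting chosen after seeing the data, gave LMA coefficients of 0.033 to 0.058 for PLIN1, -0.0063 to 0.0015 for RETN and 0.020 to 0.049 for ADIG, and BF coefficients of -0.011 to -0.0038, -0.012 to -0.0035 and -0.033 to -0.0092. Correlations were -0.157 to -0.0215 for PLIN1 and RETN, 0.115 to 0.185 for PLIN1 and ADIG and 0.191 to 0.255 for RETN and ADIG.

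Ratios read as if they were deposited in the order of the dyes put the dye effect into the trait columns. PLIN1 was then 0.058 for LMA (limma adjusted p = 0.0104) and 0.048 for BF, RETN -0.045 and -0.058 (adjusted p = 0.00102 and 1.56e-04) and ADIG -0.18 and -0.12 (adjusted p = 3.59e-06 and 0.00694). Correlations of the ratios as deposited, which keep the dye effect, were -0.279 for PLIN1 and RETN, -0.0614 for PLIN1 and ADIG and 0.446 for RETN and ADIG (adjusted p = 0.0129, 0.568 and 9e-05, permutation test). With litter means in place of arrays (replicate block), PLIN1 and ADIG had -0.0085. With the array dye slope regressed out, PLIN1 and ADIG had 0.269 and RETN and ADIG -0.0292; with litter means as well, a setting chosen after seeing the data, RETN and ADIG had -0.119. For male and female pairs of a litter, PLIN1 had 0.191 and RETN -0.0735 without litters holding an array of wide ratios; in dye order PLIN1 had 0.186 and ADIG 0.568, or 0.280 with the slope regressed out, a setting chosen after seeing the data. The percentile of RETN spread was 36.9 by median absolute deviation.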

Other observations

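Litters 13 and 19, both selected for LMA and chosen here after their values were seen, had both pairs on the same side for PLIN1 and ADIG. Over all 44 litters, both pairs were on the same side of 0 in 23 for PLIN1 and in 13 for ADIG. In litter 13 the log2 ratio of PLIN1 was 0.28 in the male and 0.27 in the female pair, and that of ADIG 0.47 and 0.26. In litter 19 PLIN1 had -0.19 in the male and -0.30 in the female pair, and ADIG -0.14 and -0.46. RETN had 0.15 and -0.086 in litter 13 and -0.017 and -0.12 in litter 19, with opposite signs in the pairs of litter 13. These are values of 8 pigs and were not tested.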
